A study of Saccharomyces cerevisiae with 12 samples.

Results

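Messenger RNA of zinc-deficient diploid budding yeast without ATG41 (atg41) was set against that of the wild type (WT). Each strain had 4 libraries, and these 8 are all the libraries that the labels give to either strain, out of 12 in a study of 3 strains that also sequenced a strain without ATG1 (atg1). Both strains are in the BY4743 background, a diploid laboratory strain. Both were pre-grown with ample zinc, washed 3 times and kept for 8 h at 30 °C in medium that limits zinc, so every library compared here is zinc deficient and none shows the zinc-replete state. RNA was taken with hot phenol, poly-A RNA was selected from 1 µg of it, and single-end reads were made on an Illumina sequencer with a TruSeq kit. Whether the 4 libraries of a strain were separate cultures is not given in the labels, so every p-value below covers only the spread between these libraries, which may be technical. The atg41 strain is a single deletion strain, and effects of the deletion and of anything else that sets that strain apart cannot be told apart.

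ATG41, also known as ICY2, encodes a small protein that yeast needs for full autophagy, the enclosure of cytoplasm in vesicles that are broken down in the vacuole. Its transcription is driven by the zinc-responsive activator Zap1 when zinc is scarce. Autophagy returns amino acids, metals and other parts of old proteins to the cell, while sulfur can also be taken up as sulfate and reduced to sulfide for cysteine and methionine, a route whose genes are switched on by the activator Met4 when these amino acids run low.

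The counts of the deleted gene matched the strain labels. ATG41 (YPL250C), a single coding exon for 136 residues on the minus strand of chromosome XVI (74309 to 74719 in assembly R64), had 1, 0, 0 and 0 counts in the atg41 libraries, against 7706, 7145, 7177 and 8973 counts in the WT libraries. Over the 4 libraries a side the ratio of WT to atg41, per count of library total, was 29682, with a 95% exact counting interval of 5327 to 1172430 that covers counting error only. ATG1, the kinase that starts autophagy, had 88.7, 78.4, 85.7 and 80.3 CPM in atg41 libraries, against 92.6, 108, 104 and 100.5 CPM in WT libraries, where CPM are TMM-scaled counts relative to the total of a library. These 2 groups did not overlap, and ATG1 was at -0.28 ± 0.06, atg41 over WT (log2 scale, edgeR adjusted p = 2.49e-04). The auxotrophic markers LEU2 and URA3 had 0 counts in all 8 libraries, as in cells in which both marker genes are missing. The pheromone genes MFA1 and MFA2 had 0 to 1 counts in atg41 libraries and 0 to 3 in WT libraries. MF(ALPHA)1, another pheromone gene, had 2 to 7 counts in atg41 libraries and 6 to 19 in WT libraries. Such low counts of these pheromone genes are as in diploid cells. LYS2, a gene of lysine synthesis for which this background is known to be heterozygous, fell by 0.85 ± 0.05. MET17, also known as MET15 and likewise heterozygous in this background, belongs to the sulfate route described below and rose by 3.62 ± 0.07. How many copies of these genes each strain carries was not tested.

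The libraries held 9623155 to 11247175 counts, and 6156 of 6660 features had enough counts to be tested. The first principal component held 78.1% of the variance and set the strains apart. Of the 6156 genes, 4364 passed an adjusted p of 0.05 (70.9% of genes tested), 2132 of them higher in atg41 (34.6%) and 2232 lower (36.3%). Most of these differences were small, with a median absolute log2 fold change of 0.32 over all genes and a median of -0.01. At least 2-fold were 261 genes higher (4.24%) and 379 lower (6.16%), at least 4-fold 57 and 45, at least 8-fold 16 and 6, and at least 16-fold 5 and 4. In 1968 genes all 4 atg41 libraries lay above all 4 WT libraries (32% of genes), and in 2052 they lay below (33.3%). Counts of members below are read against these shares. Log2 fold changes are atg41 over WT and given with their standard error, and "rose" and "fell" mean an adjusted p under 0.05 in edgeR over all genes tested. TMM factors were 0.908 to 0.966 in atg41 libraries and 1.03 to 1.09 in WT libraries. With libraries scaled to equal totals instead, the median of all genes was -0.17 and 31.6% of called genes were higher in atg41, against 48.9% with TMM factors. Reads carry no strand, so those of antisense or overlapping genes cannot be told apart.

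**Figure D1:**
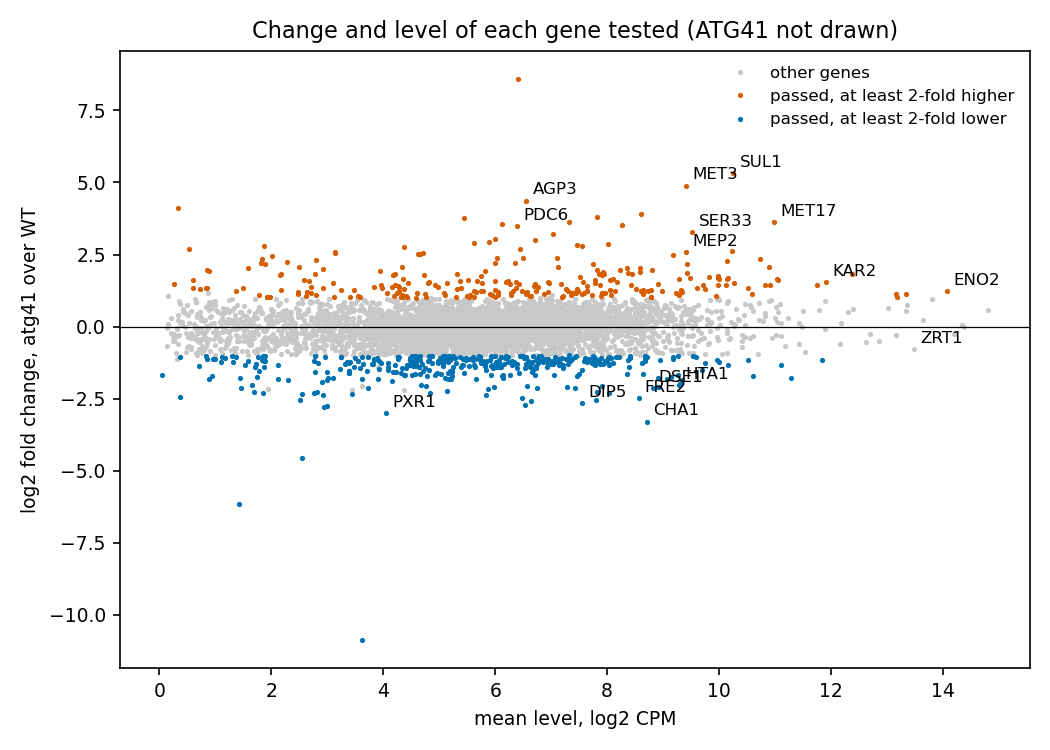
Each point is 1 of the 6156 genes tested, ATG41 left out, with its mean level (log2 CPM over the 8 libraries) on the x axis and its log2 fold change, atg41 over WT, on the y axis. Orange points passed the test and were at least 2-fold higher (261), blue points at least 2-fold lower (379 with ATG41), and grey points were the rest. SUL1, MET3 and AGP3 lie highest among the labelled genes, and the highly expressed enolase gene ENO2 lies at the right with a rise of 1.22.

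Genes that take up and reduce sulfate were among the largest rises. All 11 tested genes of that route rose at least 2-fold, with a median of 3.54. SUL1, a sulfate transporter of the plasma membrane, had 2418, 2385, 2687 and 2063 CPM in atg41 libraries, against 59.1, 61.3, 60.1 and 58.0 CPM in WT libraries. The 4 atg41 libraries were far above the 4 WT libraries, and SUL1 rose by 5.32 ± 0.08 (edgeR adjusted p = 2.73e-18). The genes of this route together took 1.04% ± 0.0545 of counts in atg41 and 0.0989% ± 0.00100 in WT (SD, n = 4 each). MET14, the kinase that makes the activated form of sulfate, had 454, 457, 398 and 392 CPM in atg41 libraries, against 28.4, 28.2, 34.2 and 31.7 CPM in WT libraries. Its groups did not overlap, and it rose by 3.80 ± 0.07.

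The promoter of MET14 is shown because it holds both elements through which Met4 is brought to DNA. Its window of 250 bases before to 50 bases after the start codon (RefSeq gene model, R64, chrXI:439336-439635, minus strand) reads as follows, with CACGTG, the site of Cbf1, and TGTGGC, the core of Met31 and Met32, in capitals on either strand. Neither motif overlaps the other.
MET14: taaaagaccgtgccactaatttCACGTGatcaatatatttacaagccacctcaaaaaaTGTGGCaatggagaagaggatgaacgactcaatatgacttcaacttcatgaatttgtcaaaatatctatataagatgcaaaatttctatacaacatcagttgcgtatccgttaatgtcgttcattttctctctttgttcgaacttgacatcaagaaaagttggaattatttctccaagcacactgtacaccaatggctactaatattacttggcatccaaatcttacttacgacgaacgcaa
CACGTG was found in 5 of the 11 windows of the sulfate route and TGTGGC in 4 of the 11, against 2.97% and 7.82% of 5650 windows in all. Among the 218 genes with a window that rose at least 2-fold, CACGTG was in 18 and TGTGGC in 40, which is 8.26% and 18.3%. Among the 334 that fell at least 2-fold they were in 5 and 23. The 4 windows with TGTGGC were all among the 5 with CACGTG, so most of the 11 windows have neither motif. Those without include SUL1, MET3, SUL2, MET5 and MET17, which says only that these letters are absent from this window.

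Genes that bring in or break down organic sulfur also rose. Of that list 8 of 9 rose and 1 fell, with a median of 1.73. MMP1, the permease for S-methylmethionine, rose by 3.20 ± 0.08, and MHT1, which passes the methyl group of that compound to homocysteine, by 2.88 ± 0.08. MHT1 belongs to the methionine cycle list, where 10 of 12 rose and 1 fell, or 8 and 2 with equal totals. JLP1, which frees sulfite from sulfonates, had 112, 107, 136 and 69.9 CPM in atg41 libraries, against 15.3, 13.2, 12.8 and 13.8 CPM in WT libraries. All atg41 libraries were above WT, and replicate 4 was the lowest of the 4. OPT1, a transporter of glutathione and small peptides, rose by 2.83 ± 0.12. It belongs to the list of transsulfuration and glutathione, where 12 of 17 rose and 4 fell, with a median of 0.57. The exception in the organic sulfur list was MUP1, the high-affinity methionine permease, which had 897, 898, 873 and 700.3 CPM in atg41 libraries, against 1199, 1179, 1089.7 and 1204 CPM in WT libraries. Its atg41 libraries were all below WT and it fell by 0.47 ± 0.07. MET28, a cofactor of Met4, rose by 2.99 ± 0.10 and MET32 by 1.38 ± 0.09, while MET4 itself was at -0.28 ± 0.11 (edgeR adjusted p = 0.0459). The call of MET4 was lost with DESeq2 size factors in edgeR (adjusted p = 0.0509), with the replicate number as a block (0.0531) and without any 1 of 6 of the 8 libraries (edgeR adjusted p of 0.0602 to 0.118), and its value was -0.17 without atg41 replicate 3.

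Serine, the carbon donor for cysteine and for one-carbon units, showed a switch between enzyme copies. SER33 and SER3 encode the same first enzyme of serine synthesis, phosphoglycerate dehydrogenase. SER33 had 1334, 1356, 1403 and 1239 CPM in atg41 libraries, against 137, 140.0, 136 and 136 CPM in WT libraries. SER3 had 85.1, 92.7, 80.9 and 92.0 CPM in atg41 libraries, against 280.3, 280.1, 265 and 266 CPM in WT libraries. SER33 was higher and SER3 lower in every atg41 library than in any WT library, with log2 fold changes of 3.28 ± 0.05 and -1.64 ± 0.05. Per transcript length, SER33 averaged 896 ± 34.7 TPM in atg41 and 94.1 ± 2.76 TPM in WT, and SER3 averaged 59.0 ± 4.62 TPM in atg41 and 187 ± 5.46 TPM in WT (SD, n = 4 each). SER3 made up 6.19% ± 0.617 in atg41 and 66.5% ± 0.508 in WT of the TPM of the pair. TPM here are the authors' length-scaled values, which allow levels of different genes to be compared.

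Their promoter windows are shown together because the pair moved in opposite directions. The SER33 window (chrIX:222441-222740, minus strand) has 1 match to TGTGGC on either strand, in capitals, and the SER3 window (chrV:322436-322735, plus strand) has none.
SER33: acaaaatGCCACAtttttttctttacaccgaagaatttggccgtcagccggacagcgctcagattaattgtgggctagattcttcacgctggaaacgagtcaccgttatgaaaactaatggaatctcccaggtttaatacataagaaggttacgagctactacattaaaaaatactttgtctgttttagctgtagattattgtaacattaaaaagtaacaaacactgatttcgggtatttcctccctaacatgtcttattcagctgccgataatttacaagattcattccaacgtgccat
SER3: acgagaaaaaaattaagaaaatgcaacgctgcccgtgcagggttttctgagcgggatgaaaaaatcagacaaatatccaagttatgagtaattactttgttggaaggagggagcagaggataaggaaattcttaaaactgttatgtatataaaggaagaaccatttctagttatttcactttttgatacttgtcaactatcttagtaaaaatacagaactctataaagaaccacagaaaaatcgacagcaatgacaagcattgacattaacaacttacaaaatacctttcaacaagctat
SRG1, a noncoding RNA that is known to be made across the SER3 promoter and to silence SER3 when serine is at hand, shares 77 annotated bases with SER3 on the same strand and was not analysed here.
CHA1, which degrades serine and threonine and is known to be induced by them, had the largest fall after ATG41 itself among genes with a symbol and a mean log2 CPM of at least 3. It had 68.9, 71.6, 82.6 and 83.4 CPM in atg41 libraries, against 778, 733, 741 and 766 CPM in WT libraries. The groups were far apart, and CHA1 was at -3.30 ± 0.06 (edgeR adjusted p = 5.53e-17). Among genes of serine, glycine and one-carbon metabolism 10 of 19 rose and 7 fell, or 7 and 8 with equal totals. ADE3, a one-carbon enzyme of the cytosol, rose by 1.33 ± 0.06.

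Among the other large rises were genes with no part in the sulfate route. AGP3, an amino acid permease, had 187, 192, 189.6 and 159.7 CPM in atg41 libraries, against 8.15, 8.34, 9.12 and 9.49 CPM in WT libraries. PDC6, a pyruvate decarboxylase copy that is hardly expressed in common media, had 149.8, 145, 186 and 144 CPM in atg41 libraries, against 15.1, 10.1, 15.1 and 15.6 CPM in WT libraries. ULI1, named as a gene induced in the unfolded protein response, rose by 3.55 ± 0.07, and DPI8, which has no settled function, by 3.61 ± 0.07. In none of these 4 genes did the groups overlap. The rises of AGP3 and PDC6 were 4.37 ± 0.08 and 3.48 ± 0.14.

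**Figure D2:**
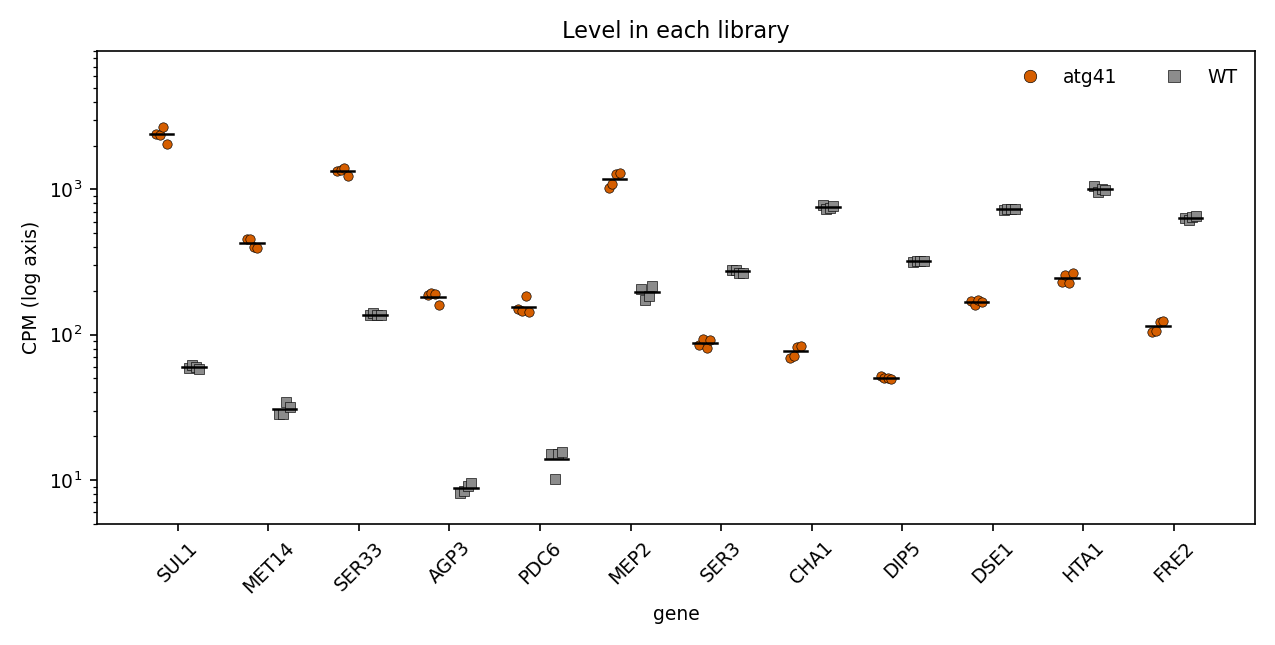
Levels of 12 genes in each library, in CPM on a log axis, with atg41 libraries (orange circles) left of WT libraries (grey squares) for each gene and a bar at the mean of 4. SUL1, MET14, SER33, AGP3, PDC6 and MEP2 were higher in all 4 atg41 libraries, and SER3, CHA1, DIP5, DSE1, HTA1 and FRE2 lower in all 4.

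The balance within other pairs of enzymes or subunits shifted too, as shares of the TPM of a pair show. A share can shift through a change in only 1 member of its pair. PYC1, a pyruvate carboxylase, rose by 2.61 ± 0.06 while its copy PYC2 fell by 0.24 ± 0.05, and PYC1 made up 83.0% ± 0.622 in atg41 and 40.4% ± 1.52 in WT of the pair. ALD6, the main acetaldehyde dehydrogenase of the cytosol, fell by 1.83 ± 0.06, and the mitochondrial enzyme ALD4 was at 0.18 ± 0.05 (edgeR adjusted p = 0.00436). That call was lost with equal totals, with all 12 libraries in 1 fit and with the trend in GC share and length removed. ALD4 was 67.4% ± 1.68 in atg41 and 33.8% ± 1.11 in WT of that pair. ADH4, an alcohol dehydrogenase of zinc-deficient cells, rose by 1.63 ± 0.05 and ADH1, the zinc-binding main enzyme, fell by 0.32 ± 0.06. ADH4 was 59.7% ± 0.809 in atg41 and 27.7% ± 1.22 in WT of this pair. COX5B, the copy of a cytochrome oxidase subunit used when oxygen is low, fell by 1.10 ± 0.06. COX5A was at 0.25 ± 0.05, and its call was lost with equal totals. COX5B was 46.8% ± 1.18 in atg41 and 69.2% ± 2.54 in WT of the TPM of COX5B and COX5A. SSA4, the heat-induced Hsp70, fell by 1.09 ± 0.05 and its copy SSA1 rose by 0.90 ± 0.05. In other pairs both copies moved together. HSP82 and HSC82, the 2 Hsp90 copies, rose by 1.13 and 1.12 on the log2 scale, and HSP82 was 28.6% ± 1.75 in atg41 and 28.4% ± 0.572 in WT of their TPM. Reads of near-identical copies such as HSP82 and HSC82 may be split between them by the counting.

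**Figure D3:**
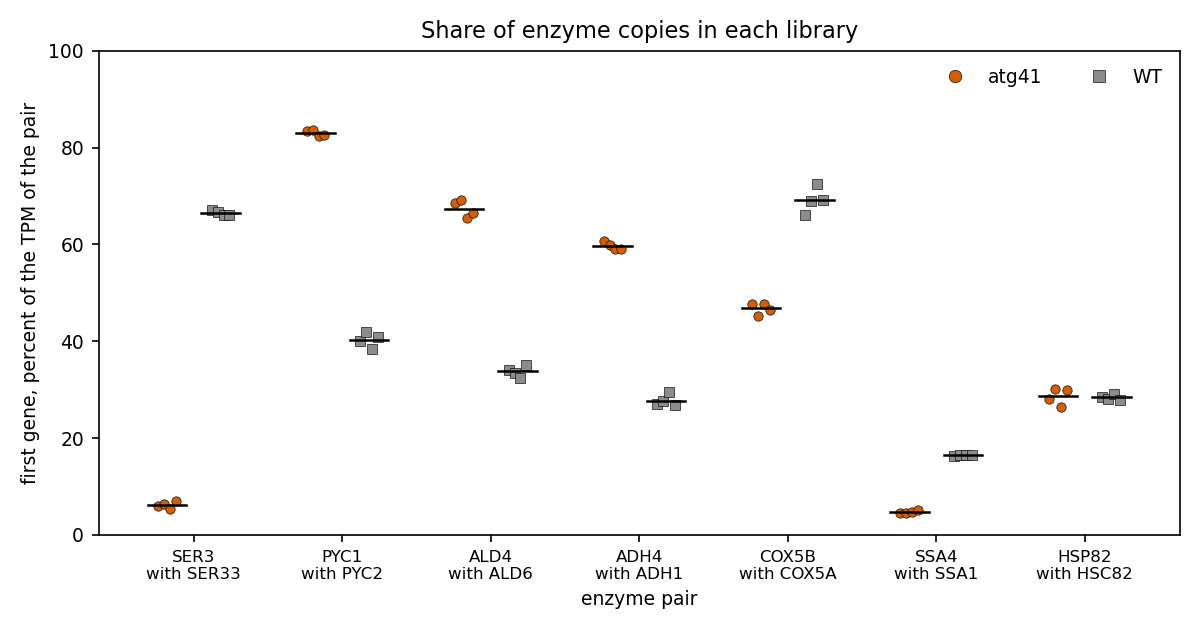
Share of the first-named enzyme in the TPM of the pair, in percent, for 7 pairs, with the 4 atg41 libraries (orange circles) left of the 4 WT libraries (grey squares) and a bar at each mean. SER3 of the pair with SER33 was 6.19% in atg41 and 66.5% in WT, PYC1 83.0% in atg41 and 40.4% in WT, and HSP82 28.6% in atg41 and 28.4% in WT.

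The transcripts of atg41 coded for slightly less sulfur. Weighted by TPM and protein length, methionine and cysteine were 3.07%, 3.07%, 3.07% and 3.07% of encoded residues in the atg41 libraries, against 3.15%, 3.15%, 3.15% and 3.17% in the WT libraries. The groups did not overlap, and the difference in means was -0.0853 percentage points (two-sided exact permutation test, p = 0.0286, the smallest that 4 against 4 libraries can give). Methionine was 1.96% in atg41 and 1.99% in WT, and cysteine 1.11% in atg41 and 1.17% in WT. The difference was -0.0319 percentage points without the 19 glycolysis genes and -0.0259 without the 20 genes of largest weight, and -0.117 without the ribosomal protein genes, each with the same p of 0.0286. It was -0.0662 without the genes of the 5 sulfur lists, also at that p. Among single enzymes, PDC6 has 5 methionines and 1 cysteine in 563 residues and PDC1, the main pyruvate decarboxylase, 13 and 4 in the same length. PDC6 was 0.735% ± 0.0429 in atg41 and 0.0687% ± 0.0138 in WT of their TPM, a minor copy in both strains. Taken over genes rather than transcripts, the median protein had 3.39% methionine and cysteine among 218 genes that rose at least 2-fold, 2.83% among 334 that fell at least 2-fold and 3.33% among all 5652.

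**Figure D4:**
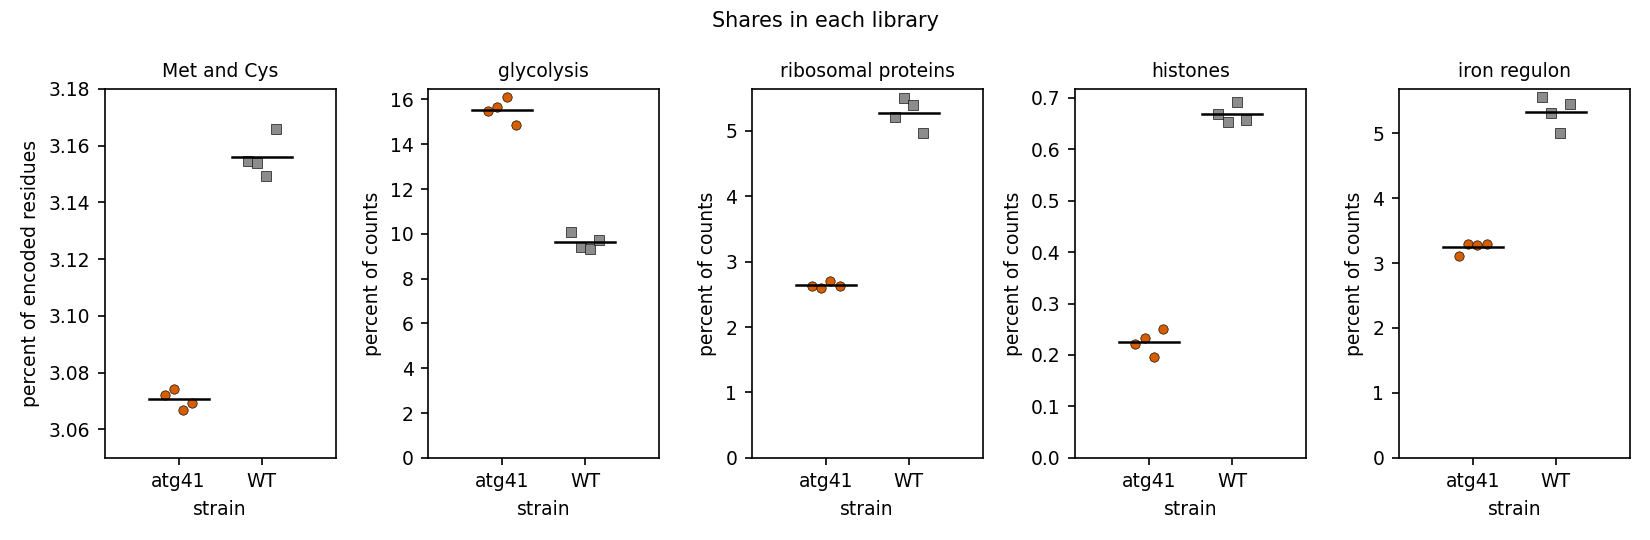
The first panel gives methionine and cysteine as a percentage of encoded residues in each library, on an axis that does not start at 0, and the others give the percentage of counts taken by glycolysis, cytosolic ribosomal protein, histone and iron regulon genes. Atg41 libraries (orange circles) stand left of WT libraries (grey squares), with a bar at the mean of 4. The groups overlap in none of the 5 panels.

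In CPM, which are relative to a library and not amounts per cell, the largest gains were in glycolysis, the path from glucose to pyruvate. Its 19 genes took 15.5%, 15.7%, 16.1% and 14.9% of counts in atg41 libraries, against 10.1%, 9.43%, 9.33% and 9.71% in WT libraries. Of them 17 rose and 1 fell, with a median of 0.63. ENO2, an enolase, gained the most of any gene, with 24186 ± 1616 CPM in atg41 and 10382 ± 656 CPM in WT (SD, n = 4 each), followed by TDH3, a glyceraldehyde phosphate dehydrogenase, with 34291 ± 2278 CPM in atg41 and 23278 ± 1743 CPM in WT. ENO1, PGK1 and GPM1 were next. TDH2 had the largest fold rise of the route (1.83 ± 0.07) and GLK1, a glucokinase, the second (1.45 ± 0.06), while PFK27, which makes a regulator of phosphofructokinase, fell by 0.67 ± 0.07. SED1, a wall protein of nongrowing cells and the sixth largest gain, had 12485 ± 1208 CPM in atg41 and 6094 ± 384 CPM in WT. TDH2 and TDH3, and ENO1 and ENO2, are close copies whose reads may be split.

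In the TCA cycle 16 of 19 rose and 2 fell, with a median of 0.62. CIT1, the mitochondrial citrate synthase, rose by 1.85 ± 0.05. In the respiratory chain 24 of 37 rose and 4 fell, or 14 and 8 with equal totals, and 0 were up at least 2-fold. RIP1, the iron-sulfur subunit of complex III, rose by 0.93 ± 0.06. The genes of gluconeogenesis and the glyoxylate cycle were at low levels, and 7 of 11 rose and 2 fell, or 5 and 3 with equal totals. The largest rises of this list were those of MLS1, a malate synthase, by 1.80 ± 0.07 and of PCK1 by 1.52 ± 0.09. In the pentose phosphate pathway, whose first enzymes make NADPH, ZWF1 at the entry rose by 1.07 ± 0.06 and GND1, which makes NADPH further along, fell by 1.78 ± 0.05. Of hexose transport genes 9 of 16 rose and 3 fell, or 5 and 5 with equal totals. HXT6, a high-affinity transporter with a near-identical copy in HXT7, rose by 1.75 ± 0.16, and HXT1, the low-affinity transporter of sugar-rich medium, fell by 1.06 ± 0.06. DLD3 and CIT2, targets of the retrograde response from mitochondria to nucleus, rose by 2.05 ± 0.05 and 1.52 ± 0.05.

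Transcripts of protein folding in the endoplasmic reticulum (ER) rose together. Of the ER folding list 14 of 16 rose and 1 fell, 9 of them at least 2-fold, with a median of 1.16, and its genes took 1.40% ± 0.0277 of counts in atg41 and 0.611% ± 0.0168 in WT (SD, n = 4 each). KAR2, the Hsp70 chaperone of the ER, had 5722, 5882, 5758 and 5563 CPM in atg41 libraries, against 2041, 1863, 1965 and 2025 CPM in WT libraries. The groups were apart, with a rise of 1.54 ± 0.05 (edgeR adjusted p = 1.54e-13). EUG1, a protein disulfide isomerase, rose by 1.62 ± 0.05. The genes of ER-associated degradation (10 of 14 rose and 0 fell, or 8 and 2 with equal totals) and of the COPII coat and its cargo receptors (18 of 23 rose and 2 fell, or 16 and 4 with equal totals) moved less, with medians of 0.46 and 0.60. ERV29, a receptor that loads soluble cargo into COPII vesicles, rose by 1.23 ± 0.05. In the cytosol 17 of 23 rose and 4 fell among the Hsp70 and Hsp90 genes and their partners, or 14 and 6 with equal totals, with STI1, which joins both chaperones, at 1.28 ± 0.05. HSP26, a small heat shock protein, fell by 0.80 ± 0.14. Among chaperones of the mitochondrial matrix 4 of 8 rose and 2 fell, or 3 and 3 with equal totals, with a median of 0.17. HSP60 rose by 1.34 ± 0.05, and MCX1 and MGE1 fell by 0.38 ± 0.06 and 0.27 ± 0.06.

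The window of KAR2 (chrX:381077-381376, plus strand) is shown because it holds the core of the unfolded protein response element, CAGCGTG, in capitals, through which the activator Hac1 is known to act.
KAR2: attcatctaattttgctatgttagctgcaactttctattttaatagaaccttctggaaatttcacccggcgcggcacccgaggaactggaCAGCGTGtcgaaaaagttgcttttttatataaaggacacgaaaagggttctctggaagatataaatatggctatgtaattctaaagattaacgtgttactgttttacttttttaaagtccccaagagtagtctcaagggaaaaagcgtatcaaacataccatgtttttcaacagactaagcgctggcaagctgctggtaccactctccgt
This core, searched on both strands, was in 2 of 16 windows of the ER folding list and in 1.17% of all windows. EUG1 does not have it in this window. Among the genes up at least 2-fold it was in 5 of 218 windows (2.29%), and among those down at least 2-fold in 2 of 334 (0.599%). The SER33 window shown above is among the 5, and it holds this core as CACGCTG, in small letters there.

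Nitrogen genes and amino acid permeases went different ways. MEP2, the high-affinity ammonium permease, had 1022, 1095, 1276 and 1289 CPM in atg41 libraries, against 207, 172, 186 and 217 CPM in WT libraries. GDH1, which joins ammonium to oxoglutarate to make glutamate, had 2548, 2613, 3049.7 and 3102 CPM in atg41 libraries, against 591, 526, 539.8 and 583 CPM in WT libraries. Both rose without overlap, by 2.58 ± 0.10 and 2.34 ± 0.07. Both were placed in the list of nitrogen catabolite repression, where 14 of 29 rose and 7 fell, or 12 and 8 with equal totals. DUR3, a urea transporter of the same list, fell by 0.94 ± 0.06. Of the amino acid permeases and their sensor 5 of 20 rose and 10 fell, 7 of these 10 by at least 2-fold, or 3 and 13 with equal totals. DIP5, the permease for glutamate and aspartate, had 52.0, 49.9, 50.6 and 49.4 CPM in atg41 libraries, against 317, 321, 319.7 and 324 CPM in WT libraries. GNP1, for glutamine, fell by 2.54 ± 0.06, and BAP3, for branched-chain amino acids, by 2.49 ± 0.06, against the rise of AGP3 given above. SSY1, the sensor of amino acids outside the cell, rose by 0.58 ± 0.05. Among genes of amino acid synthesis under Gcn4, 11 of 37 rose and 16 fell (or 7 and 22 with equal totals) and none by 2-fold, with CPA1, of arginine synthesis, at 0.74 ± 0.06 and HIS1, of histidine synthesis, at -0.82 ± 0.05.

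Genes for making ribosomes fell widely. Of the cytosolic ribosomal protein genes 1 of 135 rose and 133 fell, with a median of -0.93, and 53 fell at least 2-fold. They took 2.62%, 2.59%, 2.70% and 2.63% of counts in atg41 libraries, against 5.21%, 5.49%, 5.40% and 4.97% in WT libraries. The groups were far apart in this share. RPS9A and RPL8A fell the most (-2.38 ± 0.09 and -2.10 ± 0.06), and the 1 that rose, RPL15B (0.16 ± 0.06), had libraries that overlapped between the strains and did not pass without atg41 replicate 4 (edgeR adjusted p = 0.0520) or WT replicate 2 (0.0522). Many of these genes are near-identical pairs whose reads may be split, so values of single copies are uncertain. Ribosome biogenesis factors fell as widely (0 of 90 rose and 89 fell, median -0.83). The genes of RNA polymerase I, which makes ribosomal RNA, fell in 11 of 15, those of RNA polymerase III in 16 of 21. Among genes of mitochondrial ribosomal proteins 28 of 67 rose and 12 fell, with a median of 0.08, but 14 rose and 22 fell with libraries scaled to equal totals.

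PXR1, a nucleolar factor of rRNA processing, had 3.42, 5.15, 2.13 and 3.41 CPM in atg41 libraries, against 26.6, 30.2, 32.0 and 24.5 CPM in WT libraries. TMA23, a nucleolar protein, had 1.82, 2.19, 0.852 and 2.79 CPM in atg41 libraries, against 12.2, 14.1, 14.7 and 11.4 CPM in WT libraries, and RRP14, a factor for both ribosomal subunits, averaged 9.28 ± 3.10 CPM in atg41 and 46.0 ± 5.32 CPM in WT (SD, n = 4 each). In each of the 3 genes the groups did not overlap and atg41 replicate 3 was the lowest library. Their log2 fold changes were -3.00 ± 0.17, -2.77 ± 0.21 and -2.31 ± 0.21. The window of PXR1 (chrVII:1051676-1051975, minus strand) shows both elements for which ribosome biogenesis promoters are known, PAC (GATGAG) and RRPE (AAATTTT), in capitals on either strand. The capitals hold 2 overlapping matches of each.
PXR1: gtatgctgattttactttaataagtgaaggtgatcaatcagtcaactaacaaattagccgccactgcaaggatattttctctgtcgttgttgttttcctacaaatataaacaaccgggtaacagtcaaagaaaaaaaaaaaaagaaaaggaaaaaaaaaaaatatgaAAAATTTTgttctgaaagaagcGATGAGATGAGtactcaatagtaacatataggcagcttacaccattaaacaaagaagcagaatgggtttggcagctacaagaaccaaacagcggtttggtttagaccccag
GATGAG was in 83 of 90 windows of the ribosome biogenesis list (92.2%) and AAATTTT in 85 of 90 (94.4%), against 19.8% and 23.9% of all windows. In the windows of cytosolic ribosomal protein genes they were in 15 and 41 of 135 (11.1% and 30.4%). Among the 334 genes with a window that fell at least 2-fold, GATGAG was in 36.8% and AAATTTT in 34.7%.

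Genes of the chromosome cycle and of cell division were lower. All 11 histone genes fell, with a median of -1.06, and they took 0.225% ± 0.0226 of counts in atg41 and 0.667% ± 0.0179 in WT (SD, n = 4 each). HTA1, a histone H2A gene, had 232, 256, 228 and 265 CPM in atg41 libraries, against 1059.9, 958, 1007 and 996 CPM in WT libraries. The groups did not overlap. HHF1, a histone H4 gene, fell by 2.09 ± 0.10, and close copies of histone genes may share reads. All 9 genes of daughter cell separation fell, each at least 2-fold, with a median of -2.04. Several of these encode wall enzymes that act when the daughter cell parts from the mother. DSE1, a daughter-specific wall protein, had 169, 160.0, 174 and 167 CPM in atg41 libraries, against 718, 729, 737 and 733 CPM in WT libraries, and SCW11, a glucanase-like wall protein, had 79.6, 99.2, 76.6 and 91.5 CPM in atg41 libraries, against 441, 421, 426 and 442 CPM in WT libraries. In both, every atg41 library was far below every WT library. Fewer cells at a stage and less RNA per cell cannot be told apart in these bulk samples.

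Other cell cycle genes moved in the same direction by less. Of the list of mitosis and cytokinesis 1 of 18 rose and 15 fell, with SWI5, an activator of late mitosis, at -1.68 ± 0.08 and CLB1, a mitotic cyclin, at -1.60 ± 0.06. Of G1 cyclins and start genes 0 of 13 rose and 9 fell, with PCL1, a G1 cyclin, at -1.67 ± 0.18 and SIC1, an inhibitor of S phase kinase, at -1.45 ± 0.09. In DNA replication 7 of 42 rose and 19 fell, or 3 and 29 with equal totals, with RNR1, the large subunit of ribonucleotide reductase, at -0.82 ± 0.07. Meiosis genes, at low levels, were the other way, since 12 of 23 rose and 0 fell, or 8 and 1 with equal totals. REC8, the meiotic cohesin subunit, had 28.0, 25.6, 29.3 and 29.8 CPM in atg41 libraries, against 8.44, 8.34, 7.41 and 8.73 CPM in WT libraries, a rise of 1.77 ± 0.09 with no overlap.

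The window of REC8 (chrXVI:571329-571628, minus strand) has the Ume6 site GGCGGC, in capitals, through which meiosis genes are known to be silenced in mitotic cells. The same window also holds CACGTG, the site of Cbf1, and ACGCGT, another motif searched, both left in small letters.
REC8: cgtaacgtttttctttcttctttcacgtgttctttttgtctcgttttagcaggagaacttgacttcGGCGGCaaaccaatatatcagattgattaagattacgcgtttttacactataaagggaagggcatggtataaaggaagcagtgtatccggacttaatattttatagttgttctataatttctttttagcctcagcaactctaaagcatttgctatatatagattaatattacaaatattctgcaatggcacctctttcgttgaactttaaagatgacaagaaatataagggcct
GGCGGC was in 25 of 218 windows of genes up at least 2-fold (11.5%), in 17 of 334 of those down (5.09%) and in 4.96% of all windows.

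Metal genes were mostly lower for iron and copper, and for zinc they went both ways. Of the iron regulon 5 of 25 rose and 19 fell, or 2 and 20 with equal totals, with a median of -0.61, and its genes took 3.25% ± 0.0869 of counts in atg41 and 5.33% ± 0.241 in WT (SD, n = 4 each). FRE2, an iron reductase of the cell surface, had 105, 107, 122 and 125 CPM in atg41 libraries, against 639, 611, 647 and 658 CPM in WT libraries, a log2 fold change of -2.48 ± 0.06 with no overlap. LSO1, a small protein of the same list, rose by 1.81 ± 0.13. FIT3 and FIT2, wall proteins that hold siderophore iron, were among the 6 largest losses of CPM. FIT3 had 17076 ± 1007 CPM in atg41 and 20637 ± 1883 CPM in WT and FIT2 had 2263 ± 157 CPM in atg41 and 5077 ± 504 CPM in WT. Of copper genes 1 of 8 rose and 5 fell. CUP1-1 and CUP1-2, the metallothionein copies, each fell by 1.60 ± 0.12, and reads may be split between such copies. Their values were identical, so they count among the 5 falls without being separate measurements. ZRT1, the high-affinity zinc transporter and the largest loss of any gene, had 8284, 9053, 8159 and 7969 CPM in atg41 libraries, against 15079, 14080.1, 13652 and 14994 CPM in WT libraries. All atg41 libraries were below WT, a log2 fold change of -0.79 ± 0.06. In the list of zinc transporters and their activator 5 of 14 rose and 6 fell, or 5 and 9 with equal totals. Among other Zap1 targets 5 of 13 rose and 4 fell, or 5 and 8 with equal totals. FET4, a transporter of low affinity for iron and zinc, fell by 0.93 ± 0.05, and YKE4, a zinc transporter of the ER, rose by 0.73 ± 0.06.

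Genes at the cell surface and of lipid and storage paths held further changes. PMA1, the proton pump of the plasma membrane, and HPF1, a wall mannoprotein, were among the largest losses, with 5203 ± 209.9 CPM in atg41 and 7489 ± 386 CPM in WT and 1120.3 ± 38.2 CPM in atg41 and 3865 ± 309.5 CPM in WT. Of wall genes 18 of 34 rose and 9 fell, and PIR1, a linked wall protein, fell by 1.76 ± 0.06 while PIR3 rose by 1.53 ± 0.09. Of ergosterol genes 10 of 26 rose and 13 fell, or 5 and 16 with equal totals, with ERG3 and ERG5, late enzymes of the path, at -1.51 ± 0.06 and -1.69 ± 0.05. OLE1, the fatty acid desaturase, rose by 1.66 ± 0.07. YRO2, a membrane protein of unknown function, fell by 2.71 ± 0.06, and RPI1, which lowers Ras signalling, by 2.59 ± 0.06. SPL2, of the phosphate regulon, fell by 1.04 ± 0.10 in a list where 6 of 24 rose and 10 fell, or 5 and 14 with equal totals. GSY1, a glycogen synthase, rose by 1.32 ± 0.05, while GSY2, its main copy, fell by 0.52 ± 0.06. INO1, of inositol synthesis, rose by 1.57 ± 0.07, and BIO2, the biotin synthase, by 2.08 ± 0.09.

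Genes of core autophagy went both ways, as 8 of 21 rose and 7 fell, with a median of 0.11, or 4 up and 7 down with equal totals. ATG17, a scaffold for the Atg1 kinase, had 161, 167, 126 and 153 CPM in atg41 libraries, against 56.4, 55.9, 61.6 and 55.5 CPM in WT libraries, a rise of 1.40 ± 0.08 with no overlap. ATG38, a subunit of the autophagy lipid kinase, fell by 0.53 ± 0.14. Vacuolar hydrolases and amino acid exporters mostly rose (15 of 17 rose and 2 fell, median 0.52). PRB1, a vacuolar protease, rose by 1.66 ± 0.06, and CPS1, a vacuolar carboxypeptidase, by 1.97 ± 0.05. Of the vacuolar proton pump 6 of 18 rose and 6 fell, or 4 and 11 with equal totals.

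**Figure D5:**
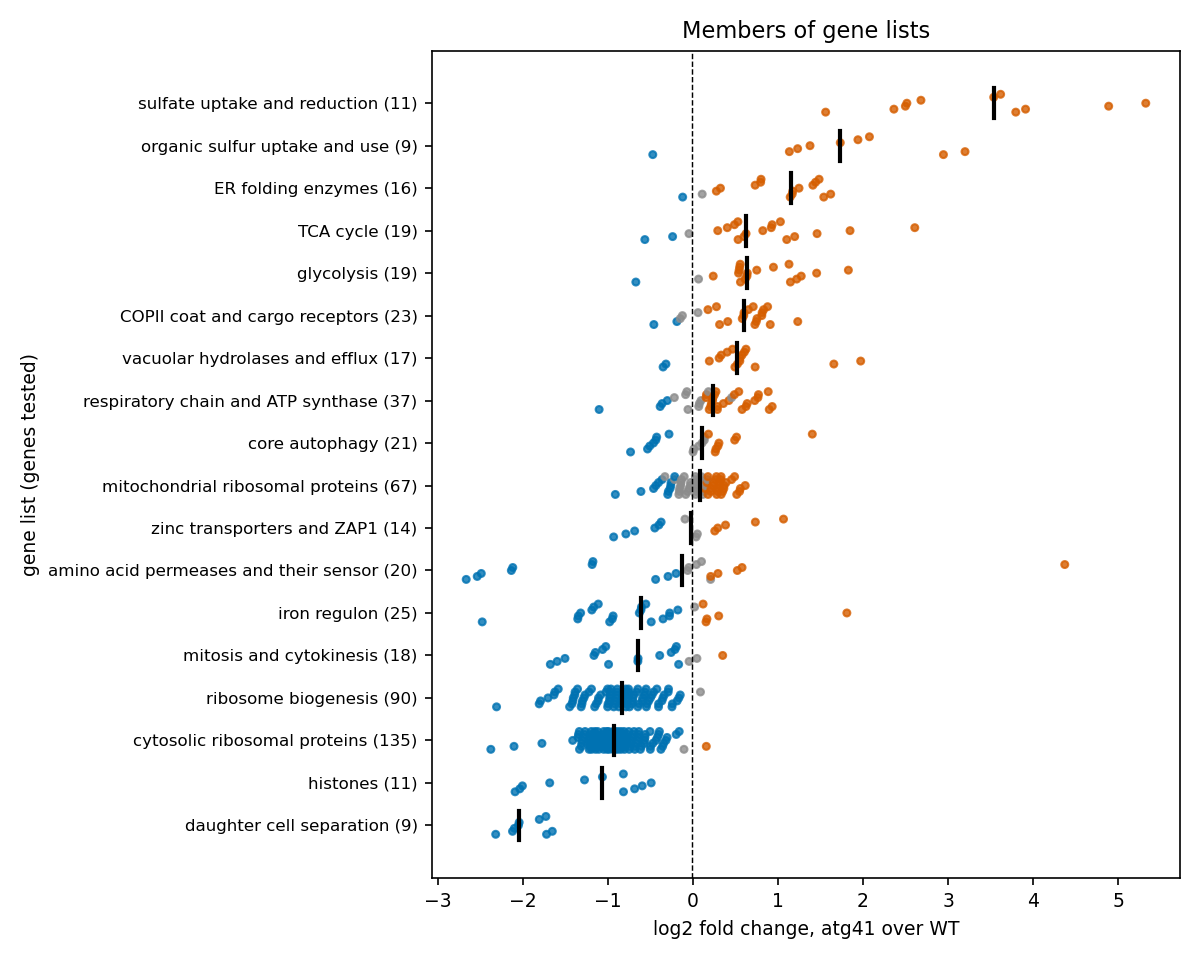
Each row is a gene list, each point a member with its log2 fold change, atg41 over WT, and each bar the median of the members. Orange points rose, blue points fell and grey points did not pass the test, and the dashed line marks the median of all genes, -0.01. The median was 3.54 for the 11 sulfate genes and -2.04 for the 9 genes of daughter cell separation.

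Position and length had smaller associations. The medians of the 16 chromosomes lay between -0.05 and 0.12. Of 191 genes within 20 kb of a chromosome end, 38 were at least 2-fold higher (19.9%, against 4.24% of all genes), and 9 at least 2-fold lower (4.71%). This class holds repeated families, such as the seripauperins (8 of 9 rose and 1 fell) and the COS genes (6 of 10 rose and 1 fell), whose near-identical members may share reads. Only 5 of these seripauperins and 3 of these COS genes, at any distance from an end, were at least 2-fold higher, against the 38 genes of the class. The 203 genes with a coding length up to 300 bases had a median of -0.19, which was 0.05 with the trend in GC share and length taken out. Of 64 Ty element genes tested, 44 rose and 7 fell, and the counts of such repeats depend on how reads are split. The highest and the lowest point apart from ATG41 in the plot of change against level are Ty genes, chosen after their values were seen. YDR316W-B had 1754, 1602, 2017 and 1070 counts in atg41 libraries, against 0, 0, 18 and 1 in WT libraries, and YGR027W-A had 0 counts in all 4 atg41 libraries, against 257, 145, 156 and 456 in WT libraries. GEX1, a glutathione exchanger near the left end of chromosome III, also chosen after its values were seen, had 0, 1, 1 and 0 counts in atg41 libraries, against 46, 59, 40 and 57 in WT libraries. Its close copy GEX2 had 98, 102, 123 and 101 counts in atg41 libraries, against 211, 197, 202 and 220 in WT libraries, and their reads may be split.

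The strain without ATG1 was measured against the same WT libraries, so its values stand only beside those of atg41. Replicate 1 of atg1 stood apart, since its counts differed from those of the other 3 by 33.0 to 55.5 (chi-square per gene), while the others differed among themselves by 6.05 to 7.12, so values without it are also given. In the direct comparison over 12 libraries 3961 of 6195 genes passed between atg41 and atg1 (63.9%), 1918 higher in atg41 (31%) and 2043 lower (33%), and 4049 passed without atg1 replicate 1. For SUL1 the log2 fold change over WT was 5.32 ± 0.08 in atg41 and -0.05 ± 0.11 in atg1 (0.04 ± 0.09 without its replicate 1), and the direct difference was 5.35 ± 0.12 (edgeR adjusted p = 1.03e-13), or 5.26 ± 0.10 without that library. For CHA1 it was -3.30 ± 0.06 in atg41 and 0.15 ± 0.06 in atg1 (0.15 ± 0.06 without its replicate 1), with a direct difference of -3.48 ± 0.07 (-3.48 ± 0.07 without). For KAR2 the values were 1.54 ± 0.05 in atg41 and 0.07 ± 0.05 in atg1 (0.07 ± 0.05 without its replicate 1), and for ENO2 1.22 ± 0.07 in atg41 and 0.27 ± 0.10 in atg1 (0.16 ± 0.07 without its replicate 1). The direct differences of these were 1.44 ± 0.06 and 0.92 ± 0.10 (1.44 ± 0.06 and 1.03 ± 0.07 without). For RRP14 the values were -2.31 ± 0.21 in atg41 and -1.29 ± 0.24 in atg1 (-1.37 ± 0.28 without its replicate 1), and the direct difference of -1.04 ± 0.27 had an edgeR adjusted p of 0.00567, or -0.97 ± 0.32 with an edgeR adjusted p of 0.0270 without that library. ATG17 was at 1.40 ± 0.08 in atg41 and -0.33 ± 0.17 in atg1 (-0.16 ± 0.11 without its replicate 1), with a direct difference of 1.70 ± 0.17 (1.54 ± 0.11 without).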

How the data were processed

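The deposited gene table holds the authors' expected counts, a unit read from its values, and a second deposited table holds the authors' TPM. BWA, STAR, RSEM and edgeR are named in the submitters' processing notes, with no role. Versions, the annotation and the genome build: not given in the sources used here. Left out were 12 columns that matched no sample. Of the expected counts 18.4% were not whole, and all were rounded. The 4 atg41 and 4 WT libraries were fitted in edgeR 4.0.16 (R 4.3.3) with TMM factors, a filter on low counts (filterByExpr, minimum count 10, minimum total 15) and the robust quasi-likelihood F test, two-sided, with Benjamini-Hochberg adjustment over 6156 genes. The fit was tested on simulated data in which few genes changed, equally up and down. That test cannot show how the scaling behaves when most genes change. The standard error is the absolute log2 fold change over the square root of F. Libraries held 9623155 to 11247175 counts, and replicates differed by more than sampling noise (chi-square per gene 3.34 to 9.14). Alternatives were DESeq2 1.42.0, limma 3.58.1 on log2(TPM + 1), other scaling, filters, all 12 libraries, a replicate block, a GC and length trend, and each library left out.

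Gene models, coordinates and promoter windows are from RefSeq assembly R64, matched by systematic name for 5986 of 6660 features, and 439 genes tested had no match. Encoded residues weight each library's TPM by protein length. Genes were named from ATG41 and ATG1, the 12 largest rises and falls with a symbol, a mean log2 CPM of at least 3 and no overlap between strains, the 6 largest gains and losses of CPM, the 2 largest rises and falls among called members of each of 79 gene lists, 35 isozyme pairs and strain markers, and not all of these are printed. HXT7 is named only as a copy of HXT6. The comparison, the members and the lists were chosen with earlier results of these data known.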

Additional observations from a re-analysis of the deposited data

Results flagged for a closer look

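Values were flagged where 1 of the 4 libraries of a strain lay far from the other 3, that is, where the gap to the nearest library was above Dixon's 95% critical value as a part of the group's range. Chance flags about 1 in 20 groups, and 12 of 266 groups were flagged. In atg41, replicate 3 was the highest library for CIT1 (1134 CPM, the others 1049 to 1059), DLD3 (3218 CPM, the others 2981 to 3008), HSP60 (1174 CPM, the others 1094 to 1105) and PDC6 (186 CPM, the others 144 to 149.8). Replicate 4 was the lowest for MUP1 (700.3 CPM, the others 873 to 898), and replicate 1 the lowest for the share of counts in the iron regulon (3.12%, the others 3.28% to 3.30%). ATG41 was at 0.107 CPM in replicate 1, the library with the single count, and at 0 in the others. In WT, replicate 3 was the highest for ATG17 (61.6 CPM, the others 55.5 to 56.4) and the lowest for CPS1 (172 CPM, the others 185 to 187) and HSP60 (417 CPM, the others 449 to 453). Replicate 2 was the lowest for PDC6 (10.1 CPM, the others 15.1 to 15.6), and replicate 1 the lowest for SSY1 (80.8 CPM, the others 85.1 to 85.7).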

How the results depend on the processing

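Over 17 alternatives, 4073 to 4420 genes passed, against 4364. With libraries scaled to equal totals 1392 genes were higher and 3020 lower, 560 of these at least 2-fold. Without any 1 library 4134 to 4295 passed, 2021 to 2095 higher and 2112 to 2211 lower, and 256 to 271 were at least 2-fold higher and 358 to 407 at least 2-fold lower. Fits that leave out a library assume like spread in both strains. Of 119 genes named, 114 kept their call and direction in every alternative. PDC1, at 0.04, was at -0.12 with equal totals and -0.15 with the trend in GC share and length removed. RPL15B was at -0.00373 with equal totals. Of 99 medians of lists and position classes, each under 17 alternatives, 326 of 1683 values moved by more than the spread between libraries. Of these, 99 moved with equal totals and 65 with the trend in GC share and length removed. A further 37 moved with limma on log2(TPM + 1) and 28 with all 12 libraries in 1 fit. The share of genes under 20 kb from an end that were at least 2-fold higher was 15.7% to 20.9%.

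Replicate numbers did not pair the libraries, since same-numbered atg41 and WT libraries had deviations from their group means that correlated at -0.0706, -0.0598, -0.107 and -0.0626, and no library correlated best with its own number. With the replicate number as a block, 4148 genes passed. The difference in encoded methionine and cysteine was -0.0876 to -0.0820 percentage points without any 1 library, where the smallest p that 3 against 4 libraries allow is 0.0571, and -0.0874 with CPM as weights. Leaving out ribosomal protein genes, glycolysis genes or atg1 replicate 1 was chosen after seeing the data. The cause of these shifts was not tested. Depth limits genes under 3 log2 CPM, of which 591 were tested.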
